A study of Mus musculus with 24 samples.

Results

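Basal cells of the mammary gland of Id4 knockout (KO) mice were compared with mature luminal (ML) cells of the same mice, across all genes, to see which differences between the 2 lineages stood without Id4. The members were all libraries of those 2 groups, 4 of KO basal cells and 4 of KO ML cells, which made 8 of the 24 libraries of the series. The series covers KO and wild-type (WT) females of the FVB/N strain, 10 to 12 weeks old and in estrus, and 3 sorted populations of each genotype. For each of 4 biological replicates, the glands of 4 to 8 mice were pooled and dissociated. Live cells negative for lineage markers were then sorted on CD24, on CD29, which is integrin beta 1, and on CD61, which is integrin beta 3. The KO basal cells were CD24+ CD29-high CD61+, and the KO ML cells were CD24+ CD29-low CD61-. WT basal and WT ML cells were sorted in the same way and are given beside them. The labels name an Id4 knockout without giving the allele, and all sorted populations of a KO mouse carry that label. No comparison here separates the loss of Id4 in one population from its loss in another, and each library averages the cells of its pool.

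The mammary duct has 2 layers. Basal cells, most of them myoepithelial, lie against the basement membrane, carry keratins 5 and 14 and contract on oxytocin to eject milk. Mature luminal cells face the lumen, and many carry the receptors for estrogen, progesterone and prolactin and signal to their neighbours by secreted factors. ID4 is a helix-loop-helix protein without a DNA-binding region. It pairs with E proteins and keeps them from their E-box sites, and in the mouse mammary gland it is known as a protein of basal cells.

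Gene counts added up to between 3098433 and 6276496 per library in KO basal cells and between 5051805 and 6943383 in KO ML cells. Levels are gene counts divided by the scaled library total (CPM) after scaling the basal and ML libraries of both genotypes together, and are listed in the order of replicates 1 to 4. Mitochondrial ribosomal RNA took 13.5% to 22.9% of the counts in KO basal cells and 24.1% to 31.4% in KO ML cells. Replicate 3 of KO basal cells stood apart from the others. It had the lowest total and the fewest genes detected, 11837, and a median rank correlation of 0.733 with the other 3, where those 3 had 0.777 to 0.840. Replicate 2 of both populations carried more milk gene RNA than the others, with a summed level of 4362 CPM in KO basal cells and 3363 CPM in KO ML cells, against at most 1136 CPM and 393.8 CPM in the other replicates. Endothelial markers were highest in replicate 3 of KO basal cells, at a summed 298.5 CPM. Fold changes below are on the log2 scale, KO basal over KO ML, with the standard error (SE). Each p is from edgeR's quasi-likelihood test, adjusted over all genes tested, and a gene is said to have passed, risen or fallen where it was below 0.05.

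Id4 itself (chr13:48261228-48266026, plus strand, mm10) was at 10.1, 1.18, 12.1 and 0.987 CPM in KO basal cells, against 0, 0, 0.928 and 0 CPM in KO ML cells. WT cells had 84.8, 14.1, 31.2 and 39.4 CPM in WT basal cells, against 0.247, 0.836, 1.38 and 0.285 CPM in WT ML cells. All 4 KO basal libraries lay above 0 and under the lowest WT basal library. Id4 was too low to be tested in the KO comparison, while in WT cells it was higher in basal cells by 5.97 (SE 0.76, edgeR adjusted p = 1.65e-04). The labels do not say which part of Id4 is deleted, so the RNA left in KO basal cells is given as a level only.

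The sorted populations carried the markers of their names. Acta2, the actin of smooth muscle and myoepithelium (chr19:34241090-34255590, minus strand, mm10), was at 5652, 4278, 3689 and 4691 CPM in KO basal cells, against 7.70, 44.5, 13.9 and 8.76 CPM in KO ML cells. The 2 populations lay far apart, with means of 4577 ± 826 CPM in KO basal cells, against 18.7 ± 17.4 CPM in KO ML cells (SD, n = 4 each), and Acta2 was higher by 7.94 (SE 0.62, edgeR adjusted p = 3.77e-06). Krt14, a keratin of basal cells (chr11:100203162-100207548, minus strand), was at 839, 509.7, 636 and 704 CPM in KO basal cells, against 1.48, 14.3, 27.6 and 3.15 CPM in KO ML cells, a difference of 5.87 (SE 0.76, edgeR adjusted p = 1.55e-04). Prlr, the prolactin receptor (chr15:10177238-10349180, plus strand), ran the other way. It was at 120.0, 285, 329 and 149 CPM in KO basal cells, against 6747, 3449, 6879 and 7257 CPM in KO ML cells, and had a fold change of -4.77 (SE 0.41, edgeR adjusted p = 7.81e-06). No library of one population reached the range of the other for any of these 3 genes. Fewer cells of a type and less RNA per cell cannot be told apart in such bulk libraries.

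Of the other markers, Krt5 rose by 5.58 (edgeR adjusted p = 5.73e-05), Trp63, the master factor of basal cells, by 5.69 (edgeR adjusted p = 4.27e-04), and the oxytocin receptor gene Oxtr by 6.02 (edgeR adjusted p = 4.98e-05). The estrogen receptor gene Esr1 fell to 4.11, 5.90, 3.57 and 18.5 CPM in KO basal cells, against 232, 139, 255 and 237 CPM in KO ML cells, a fold change of -4.73 (edgeR adjusted p = 5.47e-05). Foxa1, which opens chromatin for the estrogen receptor, had a fold change of -5.73 (edgeR adjusted p = 3.77e-06), and the progesterone receptor gene Pgr one of -3.74 (edgeR adjusted p = 8.51e-05). The simple keratins Krt8 and Krt18 were at -2.85 and -2.96, and passed with edgeR adjusted p = 5.87e-05 and 0.0012. Among the sort genes, Itgb1, which encodes CD29, rose by 1.14 (edgeR adjusted p = 0.00446) and Itgb3, which encodes CD61, by 4.46 (edgeR adjusted p = 7.55e-04), while Cd24a fell, with -1.58 (edgeR adjusted p = 0.00323). These 3 genes chose the cells and are no finding. They were not taken out of any gene list below that held them.

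Luminal progenitor markers did not separate the populations cleanly. Elf5 was at 0.474, 26.9, 0 and 18.7 CPM in KO basal cells, against 9.67, 45.6, 3.34 and 19.3 CPM in KO ML cells, and Kit at 10.1, 112, 9.98 and 12.3 CPM in KO basal cells, against 33.1, 118, 18.2 and 67.5 CPM in KO ML cells. The ranges overlapped for both genes, with fold changes of -0.73 (edgeR adjusted p = 0.741) and -0.69 (edgeR adjusted p = 0.630). Without replicate 2 of KO basal cells, the Kit fold change was -2.49 and passed with edgeR adjusted p = 0.0172. Aldh1a3 passed at -2.47 (edgeR adjusted p = 0.0451), but not without replicate 2 of KO ML cells, where the fold change was -1.92 and the edgeR adjusted p = 0.203, nor with the replicate number as a block, where it was 0.0979. It was also lost without replicate 1, 2 or 4 of KO basal cells or replicate 4 of KO ML cells, at 0.0609 to 0.147.

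**Figure D1:**
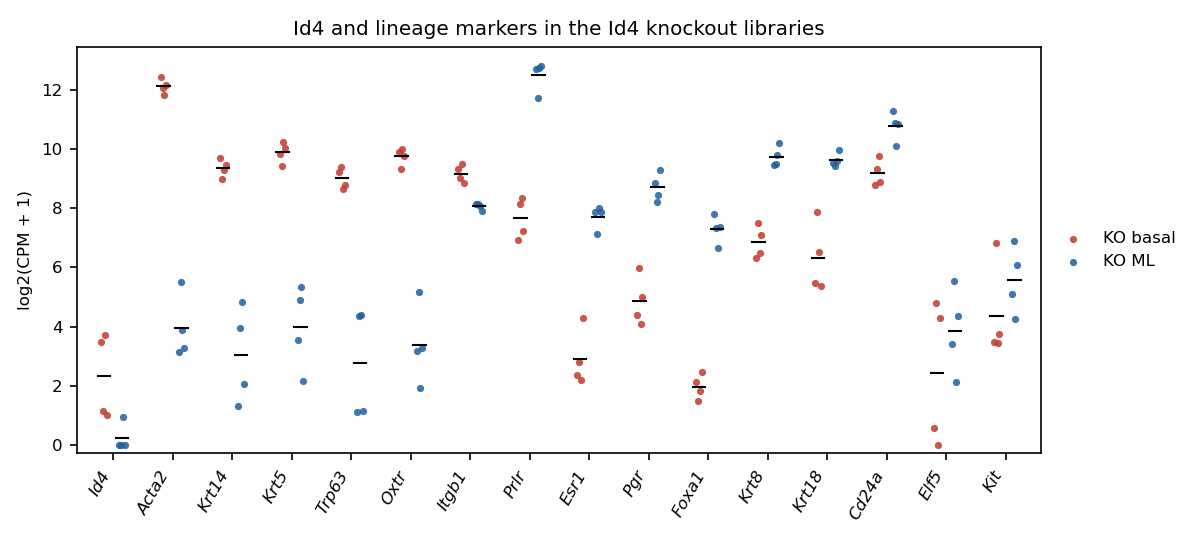
Levels of Id4, lineage markers and sort genes, as log2(CPM + 1) on the vertical axis, in the 4 KO basal libraries (red) and the 4 KO ML libraries (blue); each point is a library and each black line the mean of 4. Acta2 lies at 3689 to 5652 CPM in KO basal cells and at 7.70 to 44.5 CPM in KO ML cells, Prlr lies in the opposite order, and Elf5 and Kit overlap.

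Across the genome, 1916 of 11703 genes tested passed between KO basal and KO ML cells, which is 16.4%. Of these, 1282 were higher in KO basal cells (11.0% of those tested) and 634 were lower (5.42%). At least 4-fold differences made up 897 of the higher and 458 of the lower genes. The median fold change over all genes tested was 0.05. KO basal and KO ML libraries did not overlap in 1449 genes that were higher in basal cells (12.4%) and in 1494 that were lower (12.8%). Without replicate 3 of KO basal cells 2409 genes passed, without replicate 2 of KO basal cells 2183, and without replicate 2 of KO ML cells 1633. Genes lower in KO basal cells were the less stable side, with 407 passing without replicate 4 of KO ML cells and 1072 by DESeq2.

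Among genes with at least 1 count on average in the lower population and 20 CPM in the higher one, the 12 largest differences upwards included 4 smooth muscle genes, Actg2, Mrvi1, Cnn1 and Acta2. Actg2, the gamma actin of visceral smooth muscle, was at 153, 249.6, 101 and 136 CPM in KO basal cells, against 0.164, 0.938, 0 and 0 CPM in KO ML cells. Mrvi1, which takes part in the relaxation of smooth muscle by cyclic GMP, was at 126, 94.3, 111 and 83.4 CPM in KO basal cells, against 0.164, 0.402, 0.186 and 0.526 CPM in KO ML cells. All 4 libraries of KO basal cells lay above all KO ML libraries for both, with fold changes of 8.92 (SE 0.76, edgeR adjusted p = 7.25e-06) and 8.25 (SE 0.51, edgeR adjusted p = 1.70e-06). Cnn1, calponin, varied little among KO basal cells, at 573, 561, 541 and 620.0 CPM, against 2.46, 4.02, 1.67 and 0.526 CPM in KO ML cells. It rose by 8.02 (SE 0.50, edgeR adjusted p = 1.87e-06).

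The rest of the 12 had other roles. Il17b, a cytokine of the interleukin 17 family, was at 62.9, 151, 25.0 and 80.2 CPM in KO basal cells, against 0.164, 0.536, 0 and 0 CPM in KO ML cells. Fmod, a small proteoglycan that binds collagen, was at 121, 111, 81.7 and 126 CPM in KO basal cells, against 0.328, 0.804, 0 and 0.350 CPM in KO ML cells. Dchs1, a giant cadherin of planar polarity, was at 72.1, 81.2, 71.3 and 58.0 CPM in KO basal cells, against 0, 0.268, 0.371 and 0.350 CPM in KO ML cells. The libraries did not overlap for these 3, with fold changes of 8.53, 8.06 and 8.06. Cacna2d1, a subunit of voltage-gated calcium channels, rose by 8.03 (edgeR adjusted p = 1.77e-05). Ntrk3, the receptor of neurotrophin 3, rose by 7.94 (edgeR adjusted p = 1.22e-04), and the matrix protein gene Spon2 by 7.90 (edgeR adjusted p = 2.37e-05). Hunk, a kinase known from mammary tumours of the mouse, rose by 7.89 (edgeR adjusted p = 1.79e-05). Chst11, which sulfates chondroitin, rose by 7.87 (edgeR adjusted p = 7.49e-05), although replicate 3 of KO basal cells held 5.35 CPM and the other 3 held 86.3 to 129.5 CPM.

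By the same rule, the 12 largest differences downwards included genes of transport, junctions and secretion. Slc5a5, the sodium iodide symporter that brings iodide into milk, was at 0.158, 1.97, 0.713 and 1.97 CPM in KO basal cells, against 109, 138, 40.4 and 109 CPM in KO ML cells. Aqp5, a water channel of secretory glands, was at 1.42, 0.393, 0.357 and 0.247 CPM in KO basal cells, against 61.6, 37.4, 42.7 and 68.9 CPM in KO ML cells. Cldn6, a tight junction protein, was at 1.58, 0.393, 0.357 and 0 CPM in KO basal cells, against 37.4, 48.5, 26.7 and 44.5 CPM in KO ML cells. In all 3 the highest KO basal library lay far under the lowest KO ML library, with fold changes of -6.33 (SE 0.69, edgeR adjusted p = 4.44e-05), -6.26 (SE 0.66, edgeR adjusted p = 3.57e-05) and -5.88 (SE 0.82, edgeR adjusted p = 2.96e-04). Cdo1, which breaks down cysteine, was at 7.11, 3.14, 2.14 and 2.22 CPM in KO basal cells, against 249, 375, 288 and 269.9 CPM in KO ML cells, a fold change of -6.26 (SE 0.44, edgeR adjusted p = 3.09e-06). Tox3, a nuclear protein whose gene lies at a breast cancer locus in humans, was at 0.632, 0.786, 0 and 0.247 CPM in KO basal cells, against 41.3, 37.7, 38.6 and 34.5 CPM in KO ML cells, and its KO ML libraries were nearly level.

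Ly6d, a surface protein, had the largest fold change of these 12, -7.16 (SE 0.80, edgeR adjusted p = 5.34e-05), but was uneven. It was at 0.316, 0.983, 0.357 and 2.47 CPM in KO basal cells, against 84.4, 42.9, 160.5 and 314 CPM in KO ML cells, and it did not pass with voom and sample weights, where limma's adjusted p = 0.144. Fgb, the fibrinogen beta chain, fell with -5.92 (edgeR adjusted p = 2.89e-04). Dscam, an adhesion molecule, had -6.32 (edgeR adjusted p = 1.35e-04), Pls1, the fimbrin of microvilli, -6.48 (edgeR adjusted p = 6.05e-04), and Acsbg1, an acyl-CoA synthetase, -6.49 (edgeR adjusted p = 7.50e-04). Gipc2 and Dcdc2a made up the rest, at -5.98 (edgeR adjusted p = 5.91e-05) and -6.40 (edgeR adjusted p = 0.00196).

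Some genes that passed were listed at 0 in all libraries of one population, so only their levels are given. At these depths 3 counts were worth 0.474 to 1.07 CPM in KO basal cells and 0.402 to 0.557 CPM in KO ML cells. Sptlc3, a subunit of the enzyme that starts sphingolipid synthesis, was at 0 in the KO basal libraries and at 37.4, 16.2, 48.6 and 36.3 CPM in KO ML cells. Kcns3, a potassium channel subunit, was at 0 in KO basal cells and at 7.38, 5.09, 21.3 and 21.4 CPM in KO ML cells. Dnaic1, a dynein chain of motile cilia, was at 0 in KO basal cells and at 21.5, 6.70, 7.98 and 13.5 CPM in KO ML cells. In the other direction, Igfbp2, a binding protein of insulin-like growth factors, was at 41.2, 17.1, 5.71 and 27.4 CPM in KO basal cells and at 0 in KO ML cells. Eln, elastin, was at 12.5, 39.7, 4.99 and 18.5 CPM in KO basal cells and at 0 in KO ML cells. An identifier that shares its name, Dst, with others also fell under this rule, and since reads may be divided between such copies its level is uncertain.

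**Figure D2:**
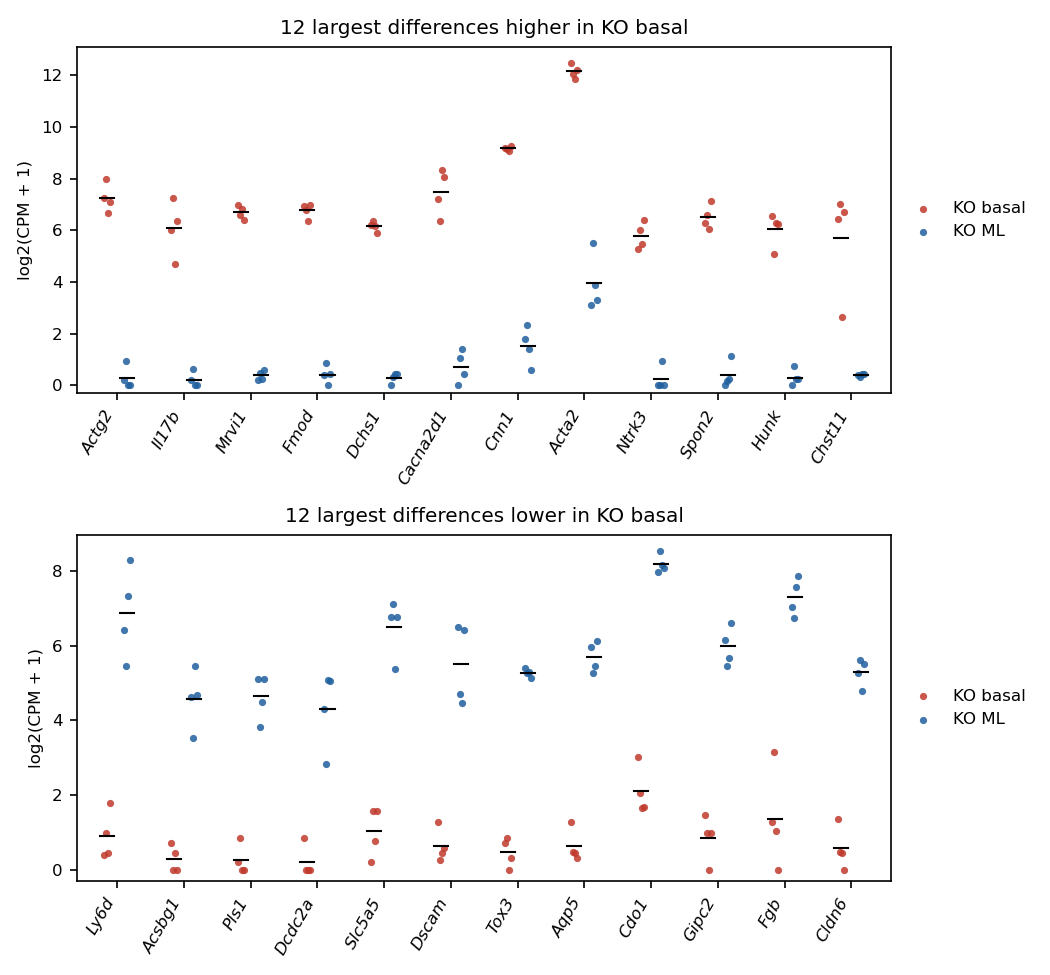
Levels as log2(CPM + 1) on the vertical axis of the 12 genes with the largest fold change upwards (top) and the 12 with the largest downwards (bottom), among genes with counts in both populations, in 4 KO basal libraries (red) and 4 KO ML libraries (blue); black lines are means of 4. In each gene shown the libraries of the populations do not overlap; Chst11 has a KO basal library at 5.35 CPM, far under the other 3.

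Genes of the contractile apparatus rose together. All 20 tested of 22 listed genes passed and were higher in KO basal cells, where 11.0% of all genes tested were. Their median fold change was 5.84 against 0.05 over all genes tested. Myh11, the myosin heavy chain of smooth muscle, was at 3021, 1652, 3877 and 3022 CPM in KO basal cells, against 8.20, 27.6, 20.04 and 11.9 CPM in KO ML cells. Mylk, the kinase that switches that myosin on, was at 1214, 777, 2176 and 1404 CPM in KO basal cells, against 11.8, 11.8, 11.7 and 6.48 CPM in KO ML cells. The populations did not overlap in either gene, and the genes rose by 7.43 (SE 0.48, edgeR adjusted p = 2.10e-06) and 7.07 (SE 0.42, edgeR adjusted p = 1.70e-06). Tpm2, a tropomyosin, rose by 6.82 (edgeR adjusted p = 3.77e-06), Tagln, transgelin, by 5.97 (edgeR adjusted p = 3.77e-06), and Myl9, the regulatory light chain of myosin, by 6.58 (edgeR adjusted p = 4.09e-05). Srf, the factor that binds the CArG box of smooth muscle genes, rose by 1.69 (edgeR adjusted p = 0.00301). Myocd, its smooth muscle partner, and Des, desmin, were too low to be tested. Pericytes share much of this apparatus, and 10 pericyte markers summed to 150.1 to 238.5 CPM in KO basal cells, against 80.9 to 173.9 CPM in KO ML cells, and their part in the result was not tested.

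Promoters of this list are shown because its genes moved as a group and because the CArG box and CATTCC, the motif of TEAD factors, are known from smooth muscle promoters. RefSeq on GRCm38.p6 gave a window of 250 bases before to 50 bases after the start for 16 of the 20 tested members, and both strands were searched. The CArG box was found in 2 of the 16 and in 1.6% of all 32851 promoter windows. CATTCC was found in 8 of the 16, Acta2, Cald1, Flna, Lmod1, Mylk, Pdlim3, Smtn and Tpm1, and in 14.7% of all windows. In other lists, CATTCC was found in 4 of 7 windows of ID, E protein and transition factors and in both windows of Schwann cell markers, and the CArG box in 2 of 9 windows of Wnt pathway genes, 1 of 7 of basal keratins and factors and 2 of 16 of integrins. The E-box CANNTG, also searched, was found in 12 of the 16 contractile windows, in 66.6% of those of tested genes and in 72.3% of all. Of the 8396 tested genes with a window 14.2% held CATTCC, and the share was 19.0% of the 896 genes higher in KO basal cells and 17.2% of the 424 that were lower. The stretches below run from 250 to 51 bases before the start, 5′ to 3′ on the gene's strand, with the motif in capitals. Myl9 (chr2:156775214-156775413, plus strand) and Srf (chr17:46556213-46556412, minus strand) hold CArG boxes. Lmod1 (chr1:135324563-135324762, plus strand) and Mylk (chr16:34784700-34784899, plus strand) hold CATTCC, which reads GGAATG from the other strand.
Myl9: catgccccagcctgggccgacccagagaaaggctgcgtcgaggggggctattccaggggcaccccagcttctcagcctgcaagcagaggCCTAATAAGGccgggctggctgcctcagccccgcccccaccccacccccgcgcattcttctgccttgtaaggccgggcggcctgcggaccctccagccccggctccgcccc
Srf: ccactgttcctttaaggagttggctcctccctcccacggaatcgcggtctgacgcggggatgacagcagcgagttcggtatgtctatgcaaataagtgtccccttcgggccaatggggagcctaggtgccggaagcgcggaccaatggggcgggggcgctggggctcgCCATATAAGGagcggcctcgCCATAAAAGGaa
Lmod1: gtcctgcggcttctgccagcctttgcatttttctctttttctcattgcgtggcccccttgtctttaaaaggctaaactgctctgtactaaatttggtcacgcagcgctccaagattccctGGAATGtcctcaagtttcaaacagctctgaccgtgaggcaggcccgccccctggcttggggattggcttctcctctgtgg
Mylk: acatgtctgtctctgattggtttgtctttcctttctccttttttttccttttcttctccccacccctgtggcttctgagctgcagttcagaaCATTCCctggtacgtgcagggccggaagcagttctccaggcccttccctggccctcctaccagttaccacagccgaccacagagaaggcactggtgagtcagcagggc
The Srf stretch holds the CArG box at 2 places close together, and the windows of Myl9 and Srf hold no CATTCC. Lmod1, leiomodin, which starts actin filaments in smooth muscle, was at 70.5, 32.2, 94.9 and 203 CPM in KO basal cells, against 1.15, 5.49, 0.557 and 0.350 CPM in KO ML cells, and rose by 5.69 (edgeR adjusted p = 5.40e-04). A match of letters is no evidence that a factor binds there.

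Of the basal keratins and transcription factors, 10 of 15 tested rose and 3 fell, with a median of 3.475, where 11.0% of all genes tested rose and 5.42% fell. Krt17, a keratin of basal and stressed epithelium, was at 348, 215, 243 and 353 CPM in KO basal cells, against 0.656, 5.90, 3.71 and 1.40 CPM in KO ML cells. Egr2, a zinc finger factor, was at 549.5, 637, 825 and 626 CPM in KO basal cells, against 15.4, 32.8, 29.9 and 26.6 CPM in KO ML cells. The populations were apart in both, by 6.62 (SE 0.59, edgeR adjusted p = 9.81e-06) and 4.67 (SE 0.32, edgeR adjusted p = 2.57e-06). Irx4, a homeobox factor, rose by 7.02 (edgeR adjusted p = 2.53e-04), and Vim, vimentin, by 3.47 (edgeR adjusted p = 3.52e-04). The 3 that fell were listed as basal genes but stood higher in KO ML cells. Sox9, a factor of progenitors in many epithelia, was at 159, 189.6, 330.2 and 108 CPM in KO basal cells, against 1113, 463, 786 and 858 CPM in KO ML cells, with -2.02 (edgeR adjusted p = 0.00202). Meis1, a homeobox factor, had -2.10 (edgeR adjusted p = 0.00715). Krt6a, whose reads may be shared with its near copy Krt6b, had -3.54 (edgeR adjusted p = 0.0298), and with the replicate number as a block the edgeR adjusted p was 0.0740. Without replicate 1 of KO basal cells or replicate 3 or 4 of KO ML cells it was 0.0743 to 0.106.

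Basement membrane genes rose in 18 of 20 tested and none passed downwards, beside 11.0% and 5.42% of all genes tested. Their median was 4.11. Col4a2, a chain of the collagen IV network, was at 819, 837, 383 and 695 CPM in KO basal cells, against 3.11, 10.7, 5.19 and 2.10 CPM in KO ML cells. Lama3, a chain of the laminin of hemidesmosomes, was at 615, 476, 550.2 and 634 CPM in KO basal cells, against 4.75, 21.2, 19.1 and 10.3 CPM in KO ML cells. Hspg2, perlecan, was at 402, 404, 365 and 459.7 CPM in KO basal cells, against 7.54, 22.2, 8.90 and 7.01 CPM in KO ML cells. KO basal libraries lay well above all KO ML libraries in the 3 genes, which rose by 7.01, 5.37 and 5.17. Lama1, the laminin chain of early basement membranes, rose by 7.78 (edgeR adjusted p = 2.44e-05), and Sparc, which binds collagen IV, by 5.77 (edgeR adjusted p = 6.71e-06). The 2 that did not pass were Lamb2 at 0.20 (edgeR adjusted p = 0.747) and Lama5, a chain of the mature duct's laminin, at -0.79 (edgeR adjusted p = 0.0538). Lama5 passed downwards by DESeq2, at -0.86 with an adjusted p of 0.0144, and under 6 other alternatives.

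Of 16 interstitial matrix genes tested of 20 listed, 10 rose and 1 fell, beside 11.0% and 5.42% of all genes tested. The median was 4.40. By DESeq2, and under voom with sample weights, 14 of the 16 rose and 1 fell. Postn, periostin, was at 1147, 460.4, 1229 and 832 CPM in KO basal cells, against 8.69, 22.4, 22.3 and 10.2 CPM in KO ML cells, and Fbn1, the fibrillin of microfibrils, at 495, 365, 243 and 404 CPM in KO basal cells, against 3.28, 12.9, 6.12 and 6.48 CPM in KO ML cells. Neither overlapped, with 5.87 (SE 0.47, edgeR adjusted p = 3.77e-06) and 5.72 (SE 0.45, edgeR adjusted p = 3.77e-06). Fbln2, fibulin 2, rose by 6.18 (edgeR adjusted p = 5.03e-05), with 105 CPM in replicate 3 of KO basal cells and 332 to 370 CPM in the other 3. The fibroblast collagens were low and uneven. Col1a1 was at 17.1, 34.4, 4.99 and 1.97 CPM in KO basal cells, against 3.93, 4.56, 1.48 and 1.23 CPM in KO ML cells, with 2.39 (edgeR adjusted p = 0.109), and Col3a1 had 2.41 (edgeR adjusted p = 0.0576), or 2.90 with an edgeR adjusted p of 0.0341 when the replicate number was a block. By DESeq2 both passed upwards, with DESeq2 adjusted p = 0.0392 for Col1a1 and 0.009104 for Col3a1. Under voom with sample weights they also passed, with limma adjusted p = 0.01005 and 0.001435. Col6a3 was the 1 member that fell, with -1.72 (edgeR adjusted p = 0.0295), and it did not pass without replicate 1 of KO basal cells or replicate 1, 2 or 4 of KO ML cells, where the edgeR adjusted p was 0.0638 to 0.113. Fibroblast markers summed to 205.0 to 356.8 CPM in KO basal cells, against 124.1 to 447.0 CPM in KO ML cells, and their part in these values was not tested.

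Integrins and the proteins that tie them to actin rose in 16 of 23 tested, where 11.0% of all genes tested rose. The median was 1.70. Itga9, a receptor of tenascin and osteopontin, was at 99.6, 47.2, 141 and 95.2 CPM in KO basal cells, against 0, 1.07, 1.48 and 2.10 CPM in KO ML cells. Itga1, a collagen receptor, was at 42.4, 37.7, 32.5 and 37.0 CPM in KO basal cells, against 0.328, 0.536, 1.11 and 0.701 CPM in KO ML cells. Both were low in KO ML cells and did not overlap with KO basal cells, with 6.36 (SE 0.75, edgeR adjusted p = 7.49e-05) and 5.79 (SE 0.62, edgeR adjusted p = 4.05e-05). Itga8 rose by 3.65 (edgeR adjusted p = 1.91e-04), and Itga6, the partner of beta 4 in hemidesmosomes, by 1.82 (edgeR adjusted p = 4.75e-04). Itgb4 itself did not pass, at 0.85 (edgeR adjusted p = 0.0551), nor did the plectin gene Plec, at 0.43 (edgeR adjusted p = 0.316). By DESeq2 Itgb4 passed upwards, at 0.79 (DESeq2 adjusted p = 0.0311), as it did under voom with sample weights, at 0.91 (limma adjusted p = 0.01755). It also passed in a fit of 12 libraries with luminal progenitors, at 0.83 (edgeR adjusted p = 0.0313). Among the linkers, Ilk rose by 2.51 (edgeR adjusted p = 7.01e-04), Tln1, talin, by 1.93 (edgeR adjusted p = 5.97e-04), and Vcl, vinculin, by 1.56 (edgeR adjusted p = 0.00198).

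Of 18 Wnt pathway genes tested, 11 rose and 3 fell, where 11.0% of all genes tested rose and 5.42% fell. The median was 2.95. All 3 ligands that passed were lower in KO basal cells, and all 11 genes that rose were receptors, regulators or targets. Wnt4, which the progesterone receptor induces in luminal cells, was at 1.26, 8.25, 6.06 and 1.23 CPM in KO basal cells, against 102, 118, 114 and 127 CPM in KO ML cells. Wnt5a was at 53.6, 64.8, 6.42 and 41.9 CPM in KO basal cells, against 337, 179.8, 207 and 319.6 CPM in KO ML cells. The KO ML libraries lay above all KO basal libraries for both, with -4.77 (SE 0.60, edgeR adjusted p = 1.28e-04) and -2.62 (SE 0.53, edgeR adjusted p = 0.00370), while Wnt7b, the third, had -3.53 (edgeR adjusted p = 0.0179), and an edgeR adjusted p of 0.0712 without replicate 4 and 0.0584 without replicate 1 of KO ML cells. Wnt10a and Wnt6, 2 ligands known from basal cells, were too low to be tested, at 5.46 and 7.13 CPM on average in KO basal cells, against 0.25 and 0.0464 CPM in KO ML cells.

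On the receiving side, Lgr5, a receptor of R-spondins, was at 257, 194, 152 and 127 CPM in KO basal cells, against 0.656, 1.21, 5.38 and 1.58 CPM in KO ML cells. Fzd7, a frizzled receptor, was at 436, 414, 893 and 440.5 CPM in KO basal cells, against 22.1, 28.5, 21.7 and 20.5 CPM in KO ML cells. Dkk3, of the dickkopf family, was at 267, 76.0, 343 and 299 CPM in KO basal cells, against 4.10, 10.7, 3.52 and 3.86 CPM in KO ML cells. These 3 did not overlap and rose by 6.40 (SE 0.61, edgeR adjusted p = 1.72e-05), 4.57 (SE 0.34, edgeR adjusted p = 3.77e-06) and 5.47 (SE 0.56, edgeR adjusted p = 2.72e-05). Lgr6 rose by 3.92 (edgeR adjusted p = 7.32e-05), Lgr4 by 3.63 (edgeR adjusted p = 5.87e-05) and Tcf7, a factor that acts with beta-catenin, by 3.28 (edgeR adjusted p = 0.00123). Axin2, the usual target of the pathway, rose by 3.24 (edgeR adjusted p = 0.0326), but did not pass without replicate 1, 2 or 4 of KO basal cells or replicate 1, 3 or 4 of KO ML cells, where the edgeR adjusted p was 0.0540 to 0.118. Procr, a marker of a rare basal population, rose by 2.66 (edgeR adjusted p = 0.0346), and its fold change was 1.66 with an edgeR adjusted p of 0.113 without replicate 3 of KO basal cells and 0.0537 with the replicate number as a block. It was also lost without replicate 4 of KO basal cells or any 1 KO ML library, at 0.0529 to 0.101. The coreceptors Lrp5 and Lrp6 did not pass, at 0.06 and 0.45.

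Of 14 Notch pathway genes tested, 3 were higher and 1 lower, with a median of 0.40. Over all genes tested, 11.0% were higher and 5.42% lower, with a median of 0.05. Dll1, a ligand, was at 103, 60.1, 199 and 193 CPM in KO basal cells, against 0.328, 1.07, 0.928 and 1.05 CPM in KO ML cells. Jag2, another ligand, was at 74.4, 74.3, 6.06 and 77.2 CPM in KO basal cells, against 0, 3.48, 0.371 and 0.350 CPM in KO ML cells. Replicate 3 of KO basal cells was low for Jag2, yet above all KO ML libraries, and the genes rose by 7.34 (SE 0.57, edgeR adjusted p = 3.77e-06) and 5.71 (SE 1.09, edgeR adjusted p = 0.00275). The receptor gene Notch3 was lower, at 21.7, 22.8, 12.1 and 7.15 CPM in KO basal cells, against 150.5, 78.7, 59.4 and 77.6 CPM in KO ML cells, with -2.50 (SE 0.46, edgeR adjusted p = 0.00213). Notch1 and Notch2 did not pass, at -0.68 (edgeR adjusted p = 0.268) and 0.35 (edgeR adjusted p = 0.625), nor did the target Hes1, at 0.05 (edgeR adjusted p = 0.954). Maml2, a coactivator of the pathway, rose by 2.16 (edgeR adjusted p = 6.28e-04).

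Axon guidance genes, many of which also act between the layers of the duct, rose in 15 of 21 tested and fell in none. Over all genes tested 11.0% rose and 5.42% fell, and the median of the list was 3.06. Sema5a, a semaphorin, was at 452, 383, 669 and 599 CPM in KO basal cells, against 0.328, 5.36, 8.90 and 2.45 CPM in KO ML cells. Slit2, the ligand of Robo receptors, was at 139, 139, 97.3 and 150.2 CPM in KO basal cells, against 3.61, 3.62, 10.4 and 7.01 CPM in KO ML cells. Plxna1, a semaphorin receptor, was at 137, 152, 201 and 198 CPM in KO basal cells, against 26.6, 28.7, 21.1 and 26.8 CPM in KO ML cells. The populations did not overlap in these 3, which rose by 6.96 (SE 0.70, edgeR adjusted p = 2.44e-05), 4.43 (SE 0.43, edgeR adjusted p = 2.17e-05) and 2.75 (SE 0.28, edgeR adjusted p = 3.08e-05). Slit3 rose by 4.81 (edgeR adjusted p = 2.82e-04), Ntn4, a netrin of basement membranes, by 4.59 (edgeR adjusted p = 1.53e-04), and Efnb2, an ephrin, by 3.54 (edgeR adjusted p = 2.58e-04). Ntn1 did not pass, at 0.33 (edgeR adjusted p = 0.778). Without replicate 4 of KO ML cells 10 members passed.

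In the insulin-like growth factor axis 9 of 12 tested genes rose and none fell, beside 11.0% and 5.42% of all genes tested. The median was 3.13. Pappa, a protease that frees the growth factors from their binding proteins, was at 406, 209, 223 and 372 CPM in KO basal cells, against 3.28, 7.10, 0.557 and 2.10 CPM in KO ML cells. Igf1r, the receptor, was at 92.1, 78.8, 97.3 and 114 CPM in KO basal cells, against 11.6, 12.5, 5.38 and 7.36 CPM in KO ML cells. Irs2, which carries its signal, was at 229.9, 171, 245 and 293 CPM in KO basal cells, against 29.0, 56.1, 23.7 and 21.2 CPM in KO ML cells. All 3 were apart, by 6.51 (SE 0.62, edgeR adjusted p = 1.71e-05), 3.39 (SE 0.39, edgeR adjusted p = 6.77e-05) and 2.87 (SE 0.36, edgeR adjusted p = 1.24e-04). The binding protein genes Igfbp3, Igfbp4 and Igfbp7 rose by 4.81, 4.63 and 3.39. The ligands Igf1 and Igf2 did not pass, at -0.38 (edgeR adjusted p = 0.875) and 1.57 (edgeR adjusted p = 0.272). Igfbp5 rose by 1.75 (edgeR adjusted p = 0.0320), but did not pass without replicate 1, 2 or 4 of KO basal cells or replicate 1, 3 or 4 of KO ML cells, where the edgeR adjusted p was 0.0511 to 0.105.

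Of the TGF-beta and BMP genes 6 of 21 tested rose and 2 fell, with a median of 0.26, where 11.0% of all genes tested rose and 5.42% fell. The receptors divided. Tgfbr3, the coreceptor betaglycan, was at 714, 499.5, 1058 and 842 CPM in KO basal cells, against 14.6, 18.1, 11.5 and 9.99 CPM in KO ML cells. Tgfbr2, the signalling receptor, was at 49.3, 64.1, 47.1 and 47.1 CPM in KO basal cells, against 207, 101, 193 and 195 CPM in KO ML cells. Both were without overlap, in opposite directions, at 5.86 (SE 0.35, edgeR adjusted p = 1.70e-06) and -1.73 (SE 0.30, edgeR adjusted p = 0.00138). Tgfbr1 rose by 1.87 (edgeR adjusted p = 0.00257). Ltbp2, of the latent TGF-beta binding family, rose by 5.30 (edgeR adjusted p = 2.30e-05), Bmp7, a ligand, by 4.95 (edgeR adjusted p = 1.15e-04), and Fst, follistatin, an inhibitor of activins, by 4.00 (edgeR adjusted p = 4.93e-05). Inhbb, the activin beta B chain, fell, with -2.88 (edgeR adjusted p = 0.00207). Smad2, Smad3 and Smad4 had fold changes of -0.38, -0.53 and 0.23 and did not pass.

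Of 11 tested genes in the list of ID, E protein and transition factors, 6 passed upwards and none downwards. The list had a median of 2.75, and over all genes tested 11.0% rose and 5.42% fell. Of its ID and E protein genes, Id1, Id3 and Tcf4 passed, while Id2, Tcf3 and Tcf12 did not. Id3 (chr4:136143497-136145755, plus strand, mm10) was at 103, 53.8, 95.2 and 110.2 CPM in KO basal cells, against 14.9, 15.1, 11.5 and 13.0 CPM in KO ML cells. The lowest KO basal library lay far above the highest KO ML library, and Id3 rose by 2.75 (SE 0.36, edgeR adjusted p = 1.92e-04). Id2 was at 32.2, 30.3, 53.1 and 37.0 CPM in KO basal cells, against 8.69, 3.75, 23.6 and 21.0 CPM in KO ML cells and did not pass, with 1.44 (edgeR adjusted p = 0.115). Id1 was uneven, at 21.0, 2.36, 2.50 and 21.7 CPM in KO basal cells, against 0.820, 0.402, 0.742 and 0.876 CPM in KO ML cells. It rose by 4.05 (edgeR adjusted p = 0.0150), but with the replicate number as a block the edgeR adjusted p was 0.0589, and without each KO ML library in turn it was 0.0507 to 0.0563. Tcf4, an E protein, was at 184, 240.3, 260.3 and 183 CPM in KO basal cells, against 43.3, 48.0, 60.5 and 45.0 CPM in KO ML cells, and rose by 2.16 (SE 0.27, edgeR adjusted p = 1.11e-04). The other E proteins did not pass, with -0.07 (edgeR adjusted p = 0.944) for Tcf3 and -0.75 (edgeR adjusted p = 0.146) for Tcf12. Without replicate 1 of KO basal cells, Tcf12 passed downwards, at -1.12 (edgeR adjusted p = 0.0387).

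Among factors of the epithelial-mesenchymal transition, Snai2, which is known from basal mammary cells, was at 117, 55.2, 28.2 and 57.0 CPM in KO basal cells, against 4.43, 2.14, 0 and 0.701 CPM in KO ML cells. It rose by 5.13 (SE 0.89, edgeR adjusted p = 0.00137). Zeb2 was at 36.5, 19.8, 247 and 46.6 CPM in KO basal cells, against 0, 3.62, 3.71 and 4.03 CPM in KO ML cells, and Zeb1 at 8.22, 16.7, 117 and 3.21 CPM in KO basal cells, against 2.13, 2.55, 6.49 and 2.45 CPM in KO ML cells. Replicate 3 of KO basal cells held far more of both than the other 3. It was also the library with the most endothelial Cdh5, 147 CPM against 1.48 to 14.9 CPM in the other KO basal libraries. Zeb2 rose by 4.95 (edgeR adjusted p = 0.00409) and Zeb1 by 3.43 (edgeR adjusted p = 0.0335). Without that library the Zeb1 fold change was 1.47 with an edgeR adjusted p of 0.226, while Zeb2 still passed, and with the replicate number as a block it was 0.0515 for Zeb1. Zeb1 was also lost without replicate 1, 2 or 4 of KO ML cells, at 0.0856 to 0.0997. The part of endothelial RNA in these values was not tested.

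Hormone receptors and the factors that go with them were lower in KO basal cells in 10 of 20 tested and higher in 1. Among all genes tested 5.42% were lower and 11.0% higher, and the median of the list was -2.16. Besides the receptors above, Prom1, a surface marker of hormone-sensing cells, had -4.50 (edgeR adjusted p = 6.34e-05). Cited1, a coregulator of the estrogen receptor, had -5.49 (edgeR adjusted p = 7.20e-04), S100a6 -2.26 (edgeR adjusted p = 0.00104) and Ly6a -2.82 (edgeR adjusted p = 7.81e-04). Tfap2c, an AP-2 factor, was the 1 that rose, and was at 75.5, 77.2, 105 and 69.8 CPM in KO basal cells, against 10.00, 20.5, 9.83 and 13.8 CPM in KO ML cells, with 2.61 (SE 0.39, edgeR adjusted p = 4.44e-04). Not all of the list followed its receptors. Gata3 was at 69.4, 68.4, 67.4 and 75.2 CPM in KO basal cells, against 215, 127, 40.3 and 82.4 CPM in KO ML cells, with -0.71 (edgeR adjusted p = 0.300). Stat5a, which acts under the prolactin receptor, had 0.30 (edgeR adjusted p = 0.623).

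Secreted mediators went both ways, with 6 of 15 tested higher and 4 lower and a median of 1.175, where 11.0% of all genes tested were higher and 5.42% lower. Areg, amphiregulin, which carries the estrogen signal to the stroma, was at 18.0, 52.7, 51.7 and 18.7 CPM in KO basal cells, against 1224, 657, 242 and 879 CPM in KO ML cells. Cxcl15, a chemokine, was at 0.474, 6.09, 1.07 and 0.493 CPM in KO basal cells, against 95.1, 139.6, 49.9 and 157 CPM in KO ML cells. KO ML libraries lay above KO basal libraries in both, with -4.40 (SE 0.55, edgeR adjusted p = 1.17e-04) and -5.70 (SE 0.79, edgeR adjusted p = 2.76e-04). Upwards, Nrg1, neuregulin 1, was at 60.2, 53.1, 22.1 and 132 CPM in KO basal cells, against 0, 0.536, 0.928 and 0.175 CPM in KO ML cells. Adamts18, a matrix protease, was at 238, 353, 97.0 and 175 CPM in KO basal cells, against 0.656, 3.48, 1.30 and 0.701 CPM in KO ML cells. KO basal libraries lay above KO ML libraries in both, which rose by 7.30 (SE 0.86, edgeR adjusted p = 8.05e-05) and 7.09 (SE 0.63, edgeR adjusted p = 9.81e-06). Fgf2 rose by 5.34 (edgeR adjusted p = 5.37e-04), Cxcl12 by 4.25 (edgeR adjusted p = 0.00105) and Pdgfa by 3.19 (edgeR adjusted p = 3.82e-04). Calca and Tnfsf11, which encodes RANKL, did not pass the expression filter. Calca was at 0.474, 7.47, 0 and 0 CPM in KO basal cells, against 0, 330.2, 0.186 and 0 CPM in KO ML cells, so that replicate 2 alone carried it in KO ML cells, and Tnfsf11 was highest in the same library, at 26.1 CPM.

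Luminal keratins, junction and surface genes fell in 12 of 22 tested and rose in none, beside 5.42% and 11.0% of all genes tested. The median was -2.15. Krt19, a simple keratin, was at 24.3, 172, 28.2 and 65.1 CPM in KO basal cells, against 1044, 838, 1219 and 1513 CPM in KO ML cells. Epcam, an adhesion molecule of epithelia, was at 193, 170.2, 270.3 and 173 CPM in KO basal cells, against 688, 669, 642 and 721 CPM in KO ML cells. The populations did not overlap, and fold changes were -3.98 (SE 0.57, edgeR adjusted p = 3.62e-04) and -1.74 (SE 0.24, edgeR adjusted p = 2.78e-04). Rab25, a trafficking protein of epithelial cells, fell, with -5.72 (edgeR adjusted p = 3.82e-04), and Ocln, occludin, with -4.05 (edgeR adjusted p = 0.00418). E-cadherin, Cdh1, was near the threshold at -0.69 (edgeR adjusted p = 0.0584). It passed by DESeq2, where the fold change was -0.76 and the DESeq2 adjusted p = 0.0176. The claudins Cldn3, Cldn4 and Cldn7 had -1.88, -2.42 and -2.91 and did not pass, with edgeR adjusted p = 0.0645, 0.0997 and 0.0632. By DESeq2 all 3 passed downwards, with DESeq2 adjusted p = 0.0134, 0.0196 and 0.00673. Under voom with sample weights they also passed, with limma adjusted p = 0.00663, 0.0109 and 0.00106. Without replicate 2 of KO basal cells, which had the most milk gene RNA, Cldn4 and Cldn7 passed at -4.83 and -5.79, and with the replicate number as a block they passed at -3.82 and -4.44.

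Of 14 luminal progenitor genes tested, 1 rose and 1 fell, where 16.4% of all genes tested passed, and the riser was the sort gene Itgb3. None of 10 milk genes tested passed, and at an unadjusted p below 0.05 there was none either. Without replicate 2 of KO ML cells, the milk gene Csn1s2a passed upwards, at 5.19 (edgeR adjusted p = 0.0438). Csn3, kappa casein, was at 192, 1009, 163 and 394 CPM in KO basal cells, against 161, 846, 82.0 and 166 CPM in KO ML cells, so that replicate 2 was highest in both populations. Of 17 cell cycle genes 1 passed, Ccnd2, a D cyclin, at 180.3, 169, 116 and 131 CPM in KO basal cells, against 1.97, 3.08, 6.12 and 0.701 CPM in KO ML cells, with 5.66 (SE 0.56, edgeR adjusted p = 2.28e-05). Ccnd1, another D cyclin, did not pass, at -0.71 (edgeR adjusted p = 0.567), but with the replicate number as a block had -1.19 and an edgeR adjusted p of 0.0491. Mki67 had 1.53 (edgeR adjusted p = 0.188), but passed with the replicate number as a block, where the fold change was 2.14 and the edgeR adjusted p = 0.00433.

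Immediate early genes, which dissociation of tissue can induce, rose in 8 of 20 tested and fell in 1, with a median of 0.67. Over all genes tested, 11.0% rose and 5.42% fell. Egr1 was at 6990, 5394, 6149 and 5508 CPM in KO basal cells, against 1285, 1231, 996 and 1320 CPM in KO ML cells, with 2.33 (SE 0.23, edgeR adjusted p = 2.22e-05). Myc was at 772, 575, 1099 and 1108 CPM in KO basal cells, against 84.2, 90.6, 144 and 109.7 CPM in KO ML cells, with 3.07 (SE 0.30, edgeR adjusted p = 2.37e-05). Both genes were without overlap. Egr3 rose by 4.04 (edgeR adjusted p = 1.84e-04) and Dusp1 by 2.45 (edgeR adjusted p = 3.52e-04). Fos and Fosb did not pass, at 0.25 and -0.30, while Atf3 fell, with -1.30 (edgeR adjusted p = 0.00920). Of 12 ion channel genes tested, 4 rose and 2 fell, with a median of 0.72, beside the same 11.0% and 5.42% of all genes tested. Kcnmb1, a subunit of the calcium-activated potassium channel of smooth muscle, was at 76.5, 59.3, 42.1 and 50.6 CPM in KO basal cells, against 0, 0.536, 0.557 and 0 CPM in KO ML cells. Cacna1c, the calcium channel of smooth muscle, was at 85.5, 45.8, 382 and 236 CPM in KO basal cells, against 0.983, 2.55, 3.71 and 1.23 CPM in KO ML cells. They rose by 7.58 (SE 0.82, edgeR adjusted p = 4.09e-05) and 6.47 (SE 0.74, edgeR adjusted p = 6.26e-05), while Scnn1a, of the epithelial sodium channel, fell, with -3.38 (edgeR adjusted p = 0.00661).

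Markers of other cell types were summed in each library. Of all genes tested 16.4% passed, so a list of 4 to 8 tested markers with 0 or 1 passing does not show that the populations were alike in it. The 12 endothelial markers together held 69.2 to 298.5 CPM in KO basal cells and 16.4 to 75.5 CPM in KO ML cells, and none of 7 tested passed. Immune markers, 11 of 12 measured, held 10.4 to 41.5 CPM in KO basal cells and 3.28 to 15.95 CPM in KO ML cells, with Ptprc, Itgam and Adgre1 at 0 in KO basal cells. None of 4 tested passed. Fibroblast markers held 205.0 to 356.8 CPM in KO basal cells and 124.1 to 447.0 CPM in KO ML cells, and 1 of 8 tested passed, Fbln1, at 6.83 (edgeR adjusted p = 5.82e-04). Pericyte markers held 150.1 to 238.5 CPM in KO basal cells and 80.9 to 173.9 CPM in KO ML cells. Of 5 tested 3 rose, Pdgfrb by 4.55 (edgeR adjusted p = 0.00771), Mcam by 3.85 (edgeR adjusted p = 4.10e-04) and Cspg4 by 3.27 (edgeR adjusted p = 0.0322), and Notch3 fell, while Higd1b was at 0 in both populations and Kcnj8 at 0 in KO basal cells. With the replicate number as a block, the edgeR adjusted p of Cspg4 was 0.0761, and without replicate 1 of KO basal cells or replicate 1, 2 or 4 of KO ML cells it was 0.0734 to 0.124.

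Schwann cell markers held 273.7 to 540.6 CPM in KO basal cells and 59.2 to 185.5 CPM in KO ML cells. Pmp22, which epithelia and muscle also express, was at 259.8, 197, 487 and 389 CPM in KO basal cells, against 36.9, 16.1, 49.2 and 37.5 CPM in KO ML cells, and rose by 3.27 (edgeR adjusted p = 1.10e-04). Cdh19 rose as well, by 7.23 (edgeR adjusted p = 0.00128), which made 2 of 6 tested. The other 4 did not pass, among them Mal at -3.55 (edgeR adjusted p = 0.0592) and Mbp at -1.16 (edgeR adjusted p = 0.137). Mal passed downwards by DESeq2, with an adjusted p of 0.00533, and without replicate 1 of KO basal cells, with an edgeR adjusted p of 0.0244. Under voom with sample weights both passed downwards, with limma adjusted p = 0.0301 for Mal and 0.0197 for Mbp. Adipocyte markers held 4.32 to 27.1 CPM in KO basal cells and 1.15 to 48.2 CPM in KO ML cells, with Adipoq at 0 in KO basal cells. Erythroid markers held 0.357 to 3.34 CPM in KO basal cells and 1.40 to 6.57 CPM in KO ML cells. The part of these cells in the differences above was not tested.

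**Figure D3:**
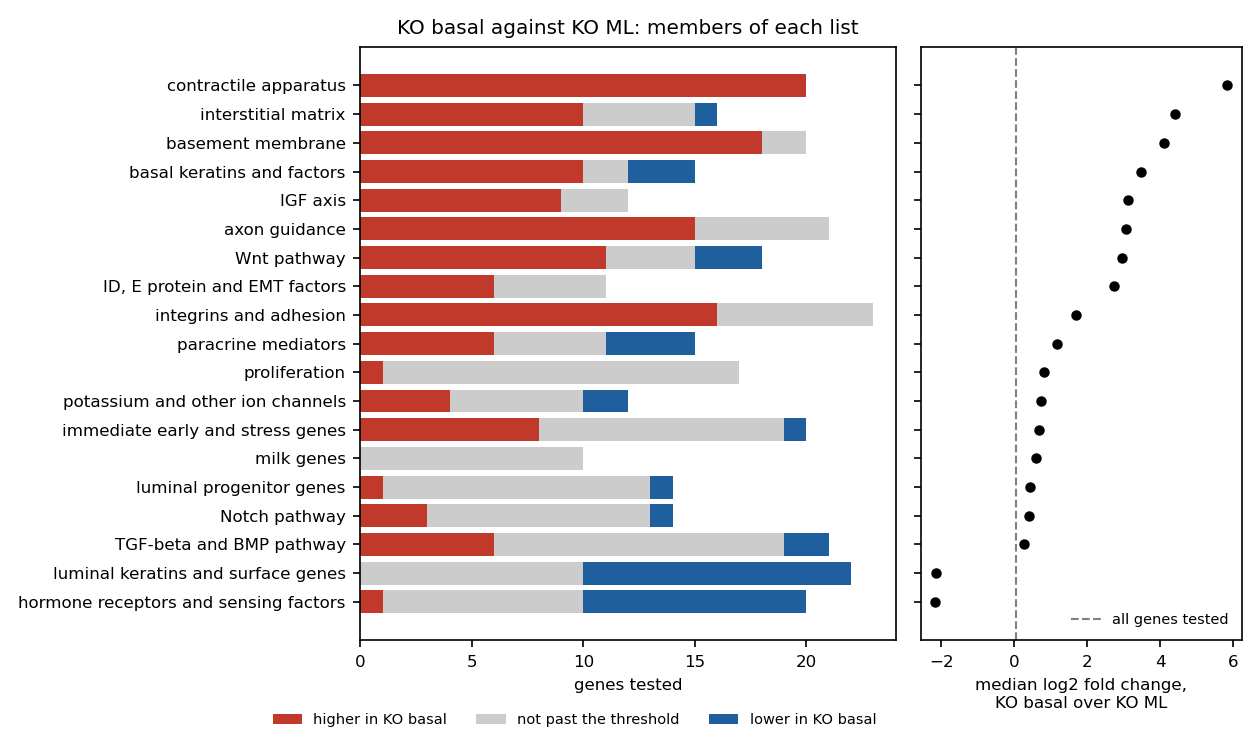
Left, the number of tested genes of each list that were higher (red), not past the threshold (grey) or lower (blue) in KO basal against KO ML cells, for lists with at least 10 tested genes. Right, the median log2 fold change of each list (points) beside that of all genes tested, 0.05 (dashed line). Contractile apparatus lies at the top with all 20 higher, and hormone receptors and luminal keratins lie at the bottom with medians of -2.16 and -2.15.

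Most of the lineage differences seen in KO cells were also seen in WT cells. The same test on 4 WT basal and 4 WT ML libraries, none shared with the KO comparison, passed 2414 of 11871 genes (20.3%), 1475 higher in basal cells (12.4%) and 939 lower (7.91%). Of the 11237 genes tested in both genotypes, 1821 passed in KO and 2282 in WT, and 1358 passed in both. That was 74.57% of the KO genes and 59.51% of the WT genes. All 1358 had the same direction in both genotypes, 964 higher and 394 lower in basal cells, while 75.95% of all genes tested in both had the same sign. Of the 463 that passed in KO only, 448 had the same sign in WT, and of the 924 that passed in WT only, 876 had the same sign in KO.

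The share that passed in KO cells was larger among genes far apart in WT cells. Large differences pass more easily with 4 libraries a side, so these shares do not show that smaller differences depended more on Id4. Among genes of any size that passed in WT only, 94.81% had the same sign in KO. Of 1282 genes at least 4-fold apart in WT cells, 937 passed in KO cells (73.09%), and 1265 had the same sign. Of 1000 WT genes with smaller differences, 421 passed in KO cells (42.1%). A gene that passed in one genotype and not in the other is not thereby shown to differ between them.

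All 20 contractile genes tested passed upwards in KO and in WT, with medians of 5.84 in KO and 5.53 in WT. Basement membrane genes passed upwards in 18 of 20 in KO and 19 of 21 in WT, where 1 passed downwards, integrins in 16 of 23 in both, and axon guidance genes in 15 of 21 in both. Hormone-sensing genes passed downwards in 10 of 20 in KO and 11 of 20 in WT, and luminal keratin and surface genes in 12 of 22 in KO and 13 of 22 in WT. The list of ID, E protein and transition factors had 6 of 11 passing upwards in KO and 3 of 10 in WT, with 1 downwards in WT. Its medians were 2.75 in KO and 0.73 in WT. Wnt pathway genes passed upwards in 11 of 18 in KO and 8 of 18 in WT. Immediate early and stress genes passed upwards in 8 of 20 in KO, where 1 passed downwards, and in 6 of 20 in WT, where 4 did. Luminal progenitor genes passed upwards in 1 of 14 in KO, where 1 passed downwards, and in 3 of 16 in WT. The differences between these counts were not tested. Milk genes passed in none of 10 in either genotype, with medians of 0.60 in KO and 2.04 in WT.

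**Figure D4:**
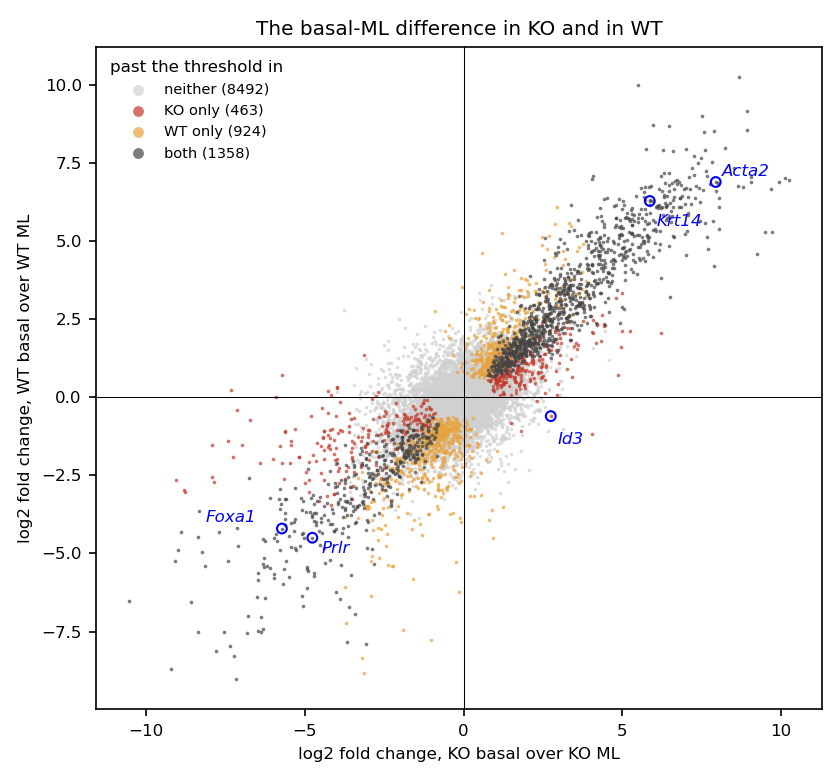
Log2 fold change of basal over ML cells in KO (horizontal) against the same in WT (vertical), each point 1 of the 11237 genes tested in both; colours show in which genotype a gene passed. Acta2 and Krt14 lie at the upper right and Prlr and Foxa1 at the lower left, while Id3 lies at 2.75 in KO and -0.60 in WT.

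The difference between the genotypes was tested directly, as KO basal over KO ML less WT basal over WT ML, from the 16 libraries together. Of 13415 genes tested, 1 passed (0.00745%), Id3, and 656 were below 0.05 unadjusted. Chance alone would put about 5% of the genes tested below 0.05, so the 656 are no excess. Id3 was at 103, 53.8, 95.2 and 110.2 CPM in KO basal cells, against 14.9, 15.1, 11.5 and 13.0 CPM in KO ML cells. WT cells had 17.5, 11.7, 13.2 and 14.7 CPM in WT basal cells, against 19.9, 32.9, 16.1 and 15.96 CPM in WT ML cells. Only KO basal libraries stood high, and the other 3 groups lay at 11.5 to 32.9 CPM. The KO fold change was 2.75, the WT one -0.60 (edgeR adjusted p = 0.353), and the difference 3.30 (SE 0.52, edgeR adjusted p = 0.0346). The call was lost with the replicate number as a block, where the edgeR adjusted p was 0.351, without the expression filter, where it was 0.0579, and when any of the 4 WT basal or 4 WT ML libraries was left out. It was also lost without 6 of the 8 KO libraries, each left out alone.

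No other gene passed, and the 9 others with the smallest p are given with their values. Pappa was at 3.28, 7.10, 0.557 and 2.10 CPM in KO ML cells, while WT ML cells had 62.9, 19.4, 49.3 and 27.9 CPM. The KO and WT ML libraries did not overlap, and the difference was 3.24 (edgeR adjusted p = 0.485). By DESeq2 it passed, as did Id3 and Slain1, and in edgeR it passed without replicate 2 of KO ML cells, with a difference of 3.97 and an edgeR adjusted p of 0.0479. Zbed3, a zinc finger protein, was at 20.7, 50.7, 85.2 and 31.6 CPM in KO basal cells, against 4.43, 9.65, 2.97 and 7.54 CPM in KO ML cells. WT cells had 9.12, 7.76, 12.3 and 11.9 CPM in WT basal cells, against 11.2, 8.53, 8.06 and 9.98 CPM in WT ML cells, and the difference was 2.81 (edgeR adjusted p = 0.871). Gimap4, of a family of lymphocyte GTPases, was at 0, 7.07, 6.42 and 8.14 CPM in KO basal cells and at 0 in all WT basal libraries. Osbpl9, a lipid transfer protein, had -0.81 (edgeR adjusted p = 0.0997) in KO and -2.93 (edgeR adjusted p = 7.19e-04) in WT.

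In the other direction, 4 of the 5 genes were near 0 in KO basal cells and present in some WT basal libraries. Tec, a kinase, was at 0.316, 0, 0 and 0 CPM in KO basal cells and at 2.85, 2.10, 25.5 and 1.81 CPM in WT basal cells. Slain1, which binds microtubule ends, was at 0.158, 0, 0.357 and 0 CPM in KO basal and 15.2, 8.81, 0 and 3.79 CPM in WT basal cells. Slc37a1, a sugar phosphate transporter, was at 0.158, 0.197, 0 and 0 CPM in KO basal and 2.71, 35.9, 0 and 0.824 CPM in WT basal cells. For each the WT basal libraries were uneven, with 1 or 2 of them holding most of the RNA. Rab25 was at 0.632, 0.590, 0.713 and 0 CPM in KO basal cells and at 7.84, 12.8, 0.630 and 2.64 CPM in WT basal cells. Rbck1, a subunit of a ubiquitin ligase, was the fifth. The differences were -5.51 (edgeR adjusted p = 0.871), -6.06 (edgeR adjusted p = 0.871), -6.02 (edgeR adjusted p = 0.871), -3.69 (edgeR adjusted p = 0.871) and -2.49 (edgeR adjusted p = 0.871). Replicate 2 of WT basal cells, the highest for Slc37a1 and Rab25, also held the most Elf5, 309.8 CPM, and Esr1, 42.8 CPM, of the WT basal libraries, and its milk genes summed to 25480 CPM. The part of luminal RNA in these values was not tested.

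**Figure D5:**
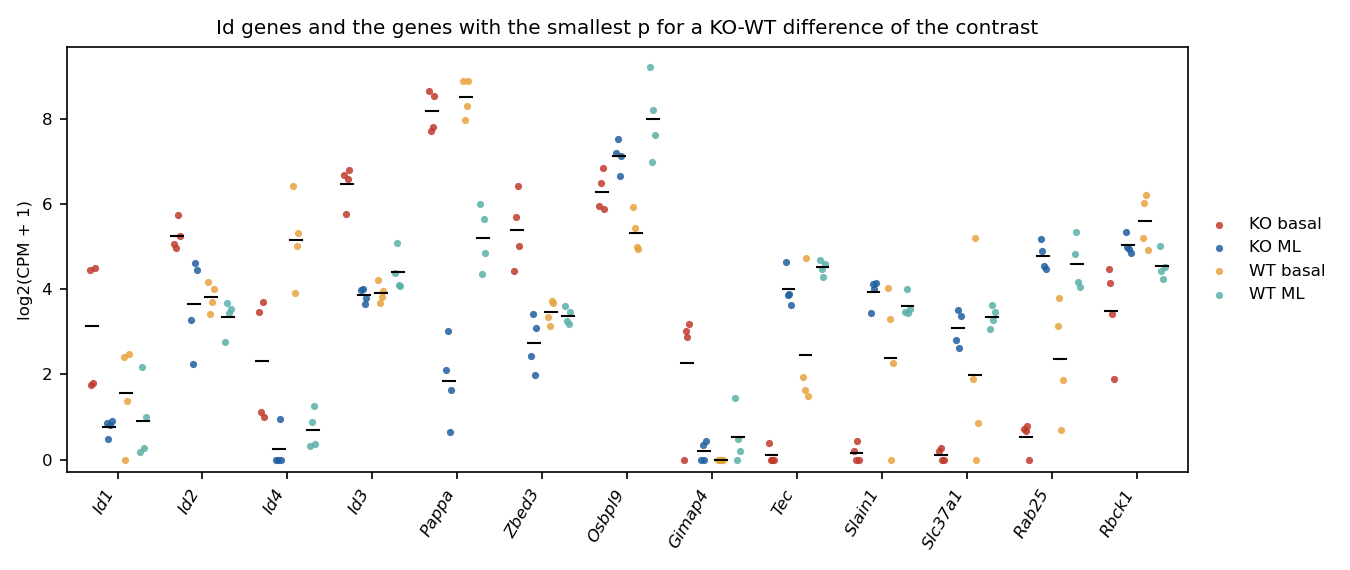
Levels as log2(CPM + 1) on the vertical axis of Id1, Id2, Id4, Id3 and the 9 genes next to Id3 by the p of the KO-WT difference, in KO basal (red), KO ML (blue), WT basal (orange) and WT ML (green) libraries; black lines are means of 4. Id3 lies at 53.8 to 110 CPM in KO basal cells alone, Pappa is lower in KO ML than in WT ML cells, and Tec, Slain1 and Slc37a1 are scattered in WT basal cells.

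Some lineage differences named above passed in KO cells and not in WT cells. Tcf4 rose by 2.16 in KO and by 0.81 (edgeR adjusted p = 0.0628) in WT, and the test of that difference gave an edgeR adjusted p of 0.871. Inhbb had -2.88 in KO and -0.05 (edgeR adjusted p = 0.978) in WT, with replicate 2 of WT basal cells at 253 CPM and the other 3 at 10.7 to 18.7 CPM, and its difference had an edgeR adjusted p of 0.994. Meis1 had -2.10 in KO and -0.58 (edgeR adjusted p = 0.475) in WT. Kcnma1, the pore of the calcium-activated potassium channel and chosen after its values were seen, went the other way. It was at 2.53, 0.197, 8.20 and 0 CPM in KO basal cells, against 0.164, 0.134, 3.71 and 3.33 CPM in KO ML cells. WT cells had 26.4, 15.5, 31.8 and 18.0 CPM in WT basal cells, against 0, 0.669, 1.38 and 1.57 CPM in WT ML cells. WT basal libraries stood above all others, the WT fold change was 4.64 (edgeR adjusted p = 0.00190), the KO one 0.56 (edgeR adjusted p = 0.834), and the difference did not pass, with -4.11 (edgeR adjusted p = 0.994).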

How the data were processed

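The libraries were made from 0.5 to 2 ng of RNA amplified with a NuGEN Ovation kit, per the labels' protocols, so counting intervals would not cover amplification. The authors deposited 1 table of RSEM expected counts for 24007 genes, with gene lengths, which were not needed here. Reads were trimmed with cutadapt and aligned with STAR to mm10, per the submitters' processing notes, with versions not stated there. Strand and duplicate handling are not stated either.

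The deposited expected counts were rounded to whole numbers. Genes were kept by edgeR's filterByExpr, scaled by TMM and tested with edgeR 4.0.16's robust quasi-likelihood test in R 4.3.3, with Benjamini-Hochberg adjustment and a threshold of 0.05, separately for KO basal against KO ML (8 libraries), WT basal against WT ML (8) and the difference between these (16). DESeq2 1.42.0, limma 3.58.1's voom, other filters and scaling, and leaving out each library were tried as alternatives, and the statistics were tested on simulated data. CPM used the TMM scaling of the 16 libraries. SE is the fold change over the square root of F. No pair of libraries of a group agreed within sampling noise.

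Named genes were Id4, the sort genes, lineage markers, the 12 largest differences each way among non-overlapping genes with at least 20 CPM in the higher population and 1 count on average in the lower, 3 each way among those at 0 in the other population, the 3 smallest p per list and direction, and the 5 smallest p each way of the difference. Others named are list members, given as examples, and some members are not reported here. No gene passed in both genotypes in opposite directions. The members and the 26 gene lists, of which 428 of 431 symbols were found, were chosen with earlier results of these data known, some from an earlier analysis of the same libraries.

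Each replicate number stood for 1 pool of mice from which the populations were sorted, per the series' design text, so basal and ML libraries of 1 number may be paired. The tests above compare groups without this pairing, and the replicate number enters as a block only in an alternative, given beside a result where it changes a call. Deviations from the group means of same-numbered KO libraries correlated at 0.0423, 0.156, 0.170 and -0.00358, and those of other pairs at -0.186 to 0.063. Numbers come from the titles. The replicate tags of the KO ML libraries read 2, 3, 3 and 4, so their pairing is uncertain. Nothing says whether pools of different numbers were independent beyond being called biological replicates, so p-values measure the spread between these libraries.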

Additional observations from a re-analysis of the deposited data

Results flagged for a closer look

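In the difference between genotypes, Id3 was the 1 gene that passed, at 3.30 on the log2 scale (edgeR adjusted p = 0.0346), with KO basal libraries at 103, 53.8, 95.2 and 110.2 CPM and KO ML libraries at 14.9, 15.1, 11.5 and 13.0 CPM, against WT basal libraries at 17.5, 11.7, 13.2 and 14.7 CPM and WT ML libraries at 19.9, 32.9, 16.1 and 15.96 CPM. With the replicate number as a block the edgeR adjusted p of this difference was 0.351, and the call was lost. Id3 was higher in all 4 KO basal libraries than in all 12 others.

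Single libraries stood far from the other 3 of their group, by Dixon's test at the 95% level, in 16 of 199 sets of 4 values. Chance gives about 5% for independent, normally spread values. Levels of genes in the same libraries need not be such values, so the 16 are not read as an excess. The sets were of gene levels and of library quality measures, and the 16 were all of gene levels. Replicate 2 of KO ML cells had 6 of these. It held 44.49 CPM of Acta2, 22.24 CPM of Hspg2, 10.72 CPM of Dkk3 and 5.092 CPM of Egr3, more than the other 3 KO ML libraries. It held 3449 CPM of Prlr and 100.6 CPM of Tgfbr2, less than the other 3. Replicate 2 of KO basal cells had 4, with 111.8 CPM of Kit, 64.06 CPM of Tgfbr2, 28.1 CPM of Inhbb and 6.092 CPM of Cxcl15, all above the other KO basal libraries. These 2 libraries also had the largest sums of milk genes in their populations, 4362 CPM in KO basal cells and 3363 CPM in KO ML cells.

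Replicate 3 of KO basal cells, the shallowest, stood apart in 3 genes. It held 893.3 CPM of Fzd7, above the others, and 105.2 CPM of Fbln2 and 6.062 CPM of Jag2, below them. In single cases, Esr1 stood at 18.5 CPM in replicate 4 of KO basal cells, Mylk at 6.484 CPM in replicate 4 of KO ML cells and Mcam at 19.34 CPM in replicate 1 of KO ML cells. All of these genes but Kit passed between KO basal and KO ML cells.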

How the results depend on the processing

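None of the 1916 genes that passed between KO basal and KO ML cells changed sign under any alternative run. Counts for KO stayed within 1.5 times under RLE scaling (1868), no expression filter (2186), no mitochondrial genes (1866) and the replicate block (1857, of which 1667 were among the 1916). DESeq2 gave 1072 lower genes, voom with sample weights 1133, and a fit of 12 libraries with luminal progenitors 955, against 634. Testing against a fold of 2 left 1155 genes (788 higher, 367 lower). Within replicates 1 and 2 923 passed (666, 257), and within replicates 3 and 4 441 (326, 115). With 1 library left out, 1352 to 2409 passed, 945 to 1520 higher and 407 to 889 lower, the fewest lower without replicate 4 of KO ML cells and the most without replicate 3 of KO basal cells. For WT, voom gave 3853 (1763 lower), replicates 1 and 2 alone 399 (301, 98), and leaving out 1 library 1777 to 3550, with 580 (without WT ML replicate 4) to 1566 (without WT basal replicate 2) lower. The difference had 3 genes by DESeq2 (2 higher, 1 lower), 0 with no filter, with the replicate block, in 24 libraries, or within either pair of replicates, and 0 to 1 with 1 library left out, the 1 being Id3 without KO basal replicate 2 or 3 and Pappa without KO ML replicate 2. Its unadjusted counts under the settings with 0 calls were 433 to 1385, where chance alone gives about 5% of the genes tested. The cause was not tested.

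Elf5 turned from -0.73 to 0.10 (0.1041, edgeR adjusted p = 0.976) without KO ML replicate 2, and was -1.66 without KO basal replicate 2. Of 187 list members that passed, 28 were lost with some library left out, and 32 of 149 others were gained. The replicate block changed no other call among the genes named than those given beside them. The median of all genes was 0.05, -0.12 under voom, -0.17 with no filter and -0.20 with the block. Median signs of luminal progenitor and cell cycle lists changed under 8 and 3 settings. Low genes near 3 counts cannot be ranked at these depths.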

Other observations

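Among channels and guidance receptors not described above, Trpv4, a channel opened by stretch and heat, was at 24.02, 6.09, 9.63 and 24.4 CPM in KO basal cells, against 1.15, 0.268, 1.11 and 0.526 CPM in KO ML cells. It did not overlap and was higher by 4.38 (edgeR adjusted p = 0.00366). Clca3a2, of a family of secreted chloride channel regulators, was at 299, 417, 229 and 376 CPM in KO basal cells, against 613, 465, 1437 and 886 CPM in KO ML cells, with -1.35 (edgeR adjusted p = 0.0170), and without replicate 3 of KO ML cells it had -0.98 and an edgeR adjusted p of 0.0532. Neo1, a netrin receptor, was higher by 1.17 (edgeR adjusted p = 0.00612), Nrp2, a semaphorin receptor, by 3.06 (edgeR adjusted p = 0.0288) and Sema3c, a secreted semaphorin, by 3.98 (edgeR adjusted p = 7.20e-04). Nrp2 did not pass without replicate 1 or 2 of KO basal cells or replicate 3 or 4 of KO ML cells, where the edgeR adjusted p was 0.0589 to 0.0936.

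Fosl2 was at 891, 660.0, 659 and 949 CPM in KO basal cells, against 198, 272, 206 and 151 CPM in KO ML cells, without overlap, and was higher by 1.95 (edgeR adjusted p = 2.19e-04), and Junb by 1.19 (edgeR adjusted p = 0.00782), while Jun had -0.82 (edgeR adjusted p = 0.0618), passing with the replicate block at -0.83 (edgeR adjusted p = 0.0344), and Jund had -0.06 (edgeR adjusted p = 0.945). The heat shock gene Hspa1a had 0.23 (edgeR adjusted p = 0.839) and Klf6 -0.75 (edgeR adjusted p = 0.0661). By DESeq2 Klf6 and Jun passed downwards, with DESeq2 adjusted p = 0.0316 and 0.0233. Under voom with sample weights they also passed, with limma adjusted p = 0.00918 and 0.0218, and both were gained under further settings.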
